A study of Mus musculus with 2 samples.

Results

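The pericyte-marked endothelial barcodes are droplets in which RNA of lung endothelial cells (ECs) was counted together with RNA of pericyte genes. They were chosen by measured counts of unique molecular identifiers (UMIs, each marking 1 captured RNA molecule): a barcode had 1000 to 5000 detected genes, under 20% mitochondrial UMIs, at least 2 UMIs of the endothelial genes Pecam1 and Cdh5 together, and at least 3 UMIs of Cox4i2, Higd1b, Pdgfrb and Postn together. The rule found 659 barcodes among 16262 that met its endothelial part, with 209 from the control and 450 from the B16-F10 library. In all, 22074 barcodes of the series held at least 300 genes, and 16715 passed the gene and mitochondrial limits.

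Both libraries came from wild-type C57BL/6 mouse lungs and differed in what was injected into the tail vein 6 h earlier. Control mice received PBS, and the others received 400000 B16-F10 cells, a mouse skin melanoma line, in 100 µl. Lungs were digested with collagenase, and cells positive for the endothelial surface protein Pecam1 and negative for the leukocyte protein Ptprc were sorted. The injected lungs also contributed melanoma cells labelled with a green tracker dye. Cells of the mice in a group were pooled, with 2 mice per treatment per the labels, so each group was 1 library. There was no replicate error and no test, every difference below compares 2 libraries, and intervals are 95% intervals that cover counting error only.

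Pericytes lie on the outer wall of capillaries, share a basement membrane with ECs, and are recruited by platelet-derived growth factor B that ECs release onto the receptor Pdgfrb. Like vascular smooth muscle they belong to the mural cells and relax in response to nitric oxide through soluble guanylate cyclase. Lung capillaries hold 2 main kinds of EC, the general capillary ECs (gCap) and the aerocytes (aCap), which are specialised for gas exchange. The counts of a barcode do not say whether both kinds of RNA came from 1 cell.

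Of the 4 genes of the rule, Cox4i2 and Higd1b encode mitochondrial proteins enriched in lung pericytes, Pdgfrb the receptor named above, and Postn the matrix protein periostin. In control members Cox4i2 had 448 UMIs in 149 barcodes, Higd1b 250 UMIs, Pdgfrb 198 UMIs and Postn 677 UMIs. In B16-F10 members Cox4i2 had 1176 UMIs in 349 barcodes, Higd1b 576, Pdgfrb 534 and Postn 1188. Most members rested on few molecules, since the median was 4 marker UMIs in each library. Members with UMIs of all 4 genes numbered 21 in the control and 57 in the B16-F10 library. Members that rested on a single gene numbered 38 and 43, and the leading gene differed, with Postn in 24 control and 12 B16-F10 members and Cox4i2 in 7 and 24.

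The threshold of 3 UMIs did not fall in a gap. Just inside it, with exactly 3 marker UMIs, there were 81 control and 167 B16-F10 barcodes, with a median of 4 UMIs over a list of 19 mural genes that the rule did not use. Just outside it, with exactly 2 marker UMIs, there were 193 and 362 barcodes, with a median of 3 UMIs of that list in each library. Over classes of 3, 4 to 5, 6 to 9, 10 to 19 and at least 20 marker UMIs the barcodes became fewer, down to 9 control and 23 B16-F10 members with at least 20 marker UMIs.

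**Figure D1:**
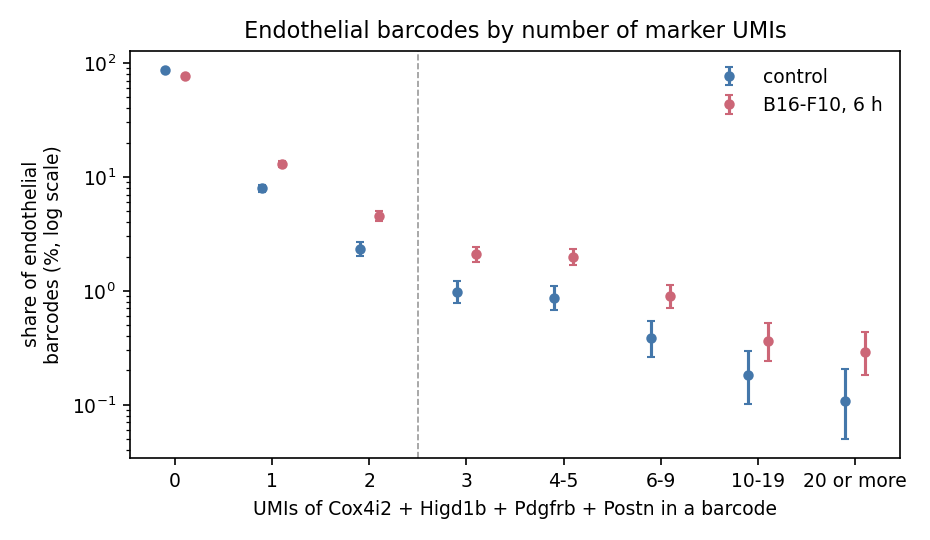
Share of endothelial barcodes (percent, log axis) by the number of marker UMIs (Cox4i2, Higd1b, Pdgfrb and Postn summed) in the control and B16-F10 libraries, with 95% Clopper-Pearson intervals that cover counting error. The shares show no gap at the limit of 3 UMIs and run from 87.2% and 76.9% with no marker UMI to 0.109% and 0.288% with 20 or more, and they were higher in the B16-F10 library at every count above 0.

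The members are therefore described by their marker count. Members with 3 to 5 marker UMIs made up 153 of the 209 control and 326 of the 450 B16-F10 members, and those with 6 to 19 made up 47 and 101. Members with 20 or more are called mural-rich below. Endothelial barcodes with no marker UMI, 7216 in the control and 6140 in the B16-F10 library, are called unmarked and serve as the comparison. Because the rule split these groups by measured values, their difference is a description.

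The mural part of the profile was small in most members and large in the mural-rich ones. Expressed per 1000000 UMIs of the summed group (CPM), the 19-gene mural list stood at 195 CPM in unmarked control barcodes and at 449 CPM in control members with 3 marker UMIs. It was 698 CPM with 4 or 5 and 1076 CPM with 6 to 9 marker UMIs, and 14100 CPM in mural-rich members. In the B16-F10 library the same steps were 164, 499, 695, 1078 and 11740 CPM. A member held a median of 6 mural list UMIs in either library, against 1 in unmarked barcodes. Members with no mural list UMI at all numbered 8 in the control and 17 in the B16-F10 library, so the pericyte label rested on the rule genes alone there.

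**Figure D2:**
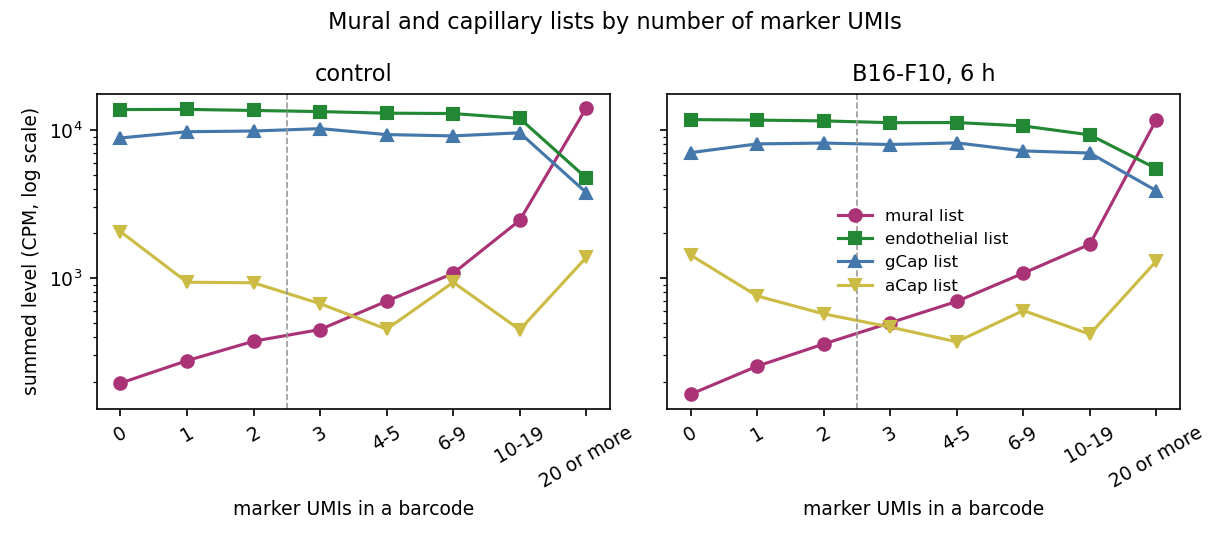
Summed level (CPM, log axis) of the mural, endothelial, gCap and aCap lists by the number of marker UMIs in each library. The mural list ran from 195 and 164 CPM with no marker UMI to 14100 and 11740 CPM with 20 or more, where the endothelial list was lowest, at 4734 and 5481 CPM.

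Free RNA gives a low level of any gene in every droplet. In near-empty barcodes, those with 1 to 100 UMIs, the 4 rule genes stood at 88.9 CPM in the control and 154 CPM in the B16-F10 library. If every UMI of a member were free RNA, this level would give 0.840 and 1.59 UMIs at the members' median depth. The mural list stood at 262 and 288 CPM in near-empty barcodes, which on that assumption would give 2.47 and 2.98 UMIs. That assumption sets an upper limit of the mean at this depth, but none of the count in a single barcode. Members were chosen for their high counts. The red cell list stood at 57020 and 43920 CPM in near-empty barcodes and at 1192 and 1171 CPM in members. In barcodes marked by leukocyte genes, 1 of 22 control and 5 of 71 B16-F10 barcodes held a marker UMI and none held 3. The floor of 3 counts is a share of 13.6% and 4.23% there, and the intervals of the 0 counts reach 15.4% and 5.06%. Their median depth was 7956 and 8275 UMIs, below the medians of 9458 and 10346 UMIs in members. The part of free RNA in the members with 3 to 5 marker UMIs was not tested.

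UMIs of the mural list were counted in nearly all mural-rich members, so the label was borne out there by the list as a whole. Single list genes differed. Gucy1a1 was found in all 9 control and 21 of the 23 B16-F10 mural-rich members. Rgs5 was found in only 2 and 4 of them, Kcnj8 in 3 and 4 and Lamc3 in 5 and 7. Abcc9, Ebf2 and Itga7 were each found in 1 control and no B16-F10 mural-rich member. In the 9 control members the mural list had 34 to 250 UMIs per barcode, with a median of 195, and in the 23 B16-F10 members it had 0 to 310, with a median of 119. The low end in the B16-F10 library was set by 2 members with 20 marker UMIs each, of which 20 and 19 were Postn, and which held 4 and 0 mural list UMIs. The endothelial list ranged from 6 to 161 UMIs per barcode in the control and from 3 to 138 in the B16-F10 mural-rich members, so endothelial RNA was sparse in some of them and plentiful in others. Pecam1 and Cdh5 together had a median of 5 and 12 UMIs, against 25 and 28 over all members.

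**Figure D3:**
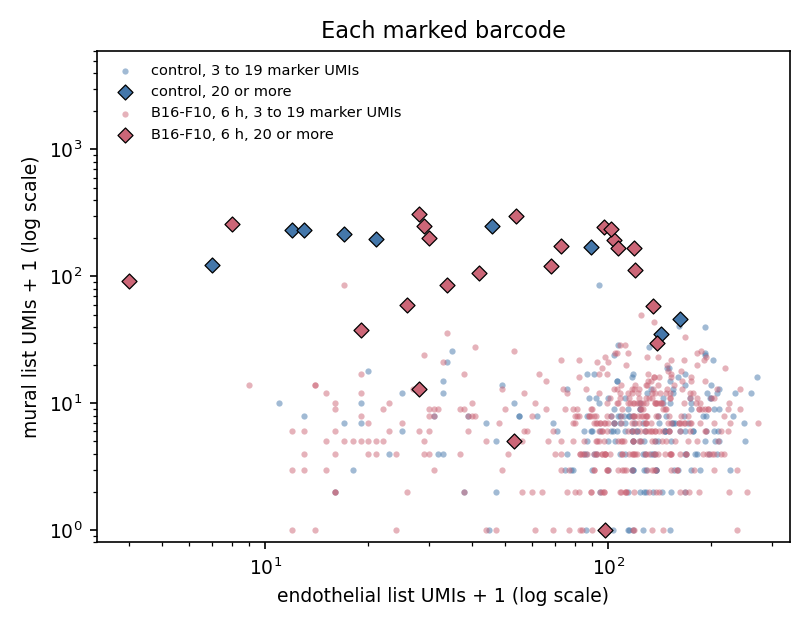
Each of the 659 members by its mural list and its endothelial list (UMIs per barcode plus 1, both on log axes), control and B16-F10, with members of 20 or more marker UMIs drawn apart. Most members lie at few mural and many endothelial UMIs, and the mural-rich ones reach 250 mural UMIs in the control and 310 in the B16-F10 library.

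Individual mural genes that the rule did not use followed the same order. Ndufa4l2, which encodes a mitochondrial subunit paralogue and is a pericyte marker in lung, stood at 74.0 CPM in control members against 2.09 CPM in unmarked barcodes, and at 87.1 against 4.62 CPM in the B16-F10 library. A UMI of it was found in 34.4% of control members (28.0 to 41.3) and 39.1% of B16-F10 members (34.6 to 43.8), against 1.51% and 3.63% of unmarked barcodes. All 9 control and 19 of the 23 B16-F10 mural-rich members held it. Agtr1a, the angiotensin II receptor, was found in 12.4% of control members (8.29 to 17.7) and 8.67% of B16-F10 members (6.24 to 11.7), against 0.457% and 0.456% of unmarked barcodes.

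Receptors and channels of the contractile mural cell made up much of the list. Gucy1a1 and Gucy1b1, the subunits of the nitric oxide receptor, were higher in members than in unmarked barcodes by log2 ratios of 5.29 and 4.03 in the control and 4.74 and 3.91 in the B16-F10 library. Gucy1a1 stood at 305 CPM in the members of either library and at 2825 and 2524 CPM in the mural-rich ones. Ednra, the endothelin receptor of mural cells, was at 39.5 against 0.392 CPM in the control and 38.9 against 1.12 CPM in B16-F10. The cation channel Trpc6 gave log2 ratios of 5.60 and 4.83, and the potassium channel Kcnk3 gave 5.37 and 5.27. Notch3, the Notch receptor of mural cells, gave 5.86 and 5.02, and its target Heyl gave 5.49 and 4.60. Vtn, encoding vitronectin, gave 6.57 and 5.49.

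Not all genes of the mural list followed this pattern. Lamc3, a laminin chain, was at 14.5 CPM in control members and 16.5 CPM in unmarked barcodes, and at 7.43 and 8.68 CPM in the B16-F10 library. Rgs5, a regulator of G protein signalling and a common pericyte marker, gave a log2 ratio of 2.35 in the control but -0.17 in the B16-F10 library, and the next paragraph gives the barcode behind the first value. Pdzd2, already at 134 and 99.5 CPM in unmarked barcodes, was higher in members by 1.80 and 2.12. Of the list, 7 genes reached the mean level set for the comparison over all genes, 25.01 CPM, and all 7 were at least 2-fold higher in members of both libraries. Members entered that mean, so list genes near 0 in unmarked barcodes passed it only through their level in members. The count of 7 therefore supports nothing. Over the 6254 genes at that level, 59 (0.943%) were at least 2-fold higher and 76 (1.22%) at least 2-fold lower in control members, and 42 (0.672%) and 54 (0.863%) in B16-F10 members. These shares are printed as background only, since the rule made the contrast.

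A single control member differed from the other mural-rich ones in several mural list genes. It held 81 of the 106 Rgs5 UMIs, all 25 UMIs of Abcc9, 20 of the 25 UMIs of Kcnj8 and 16 of the 17 UMIs of Ebf2 counted in control members. Abcc9 and Kcnj8 encode the subunits of a potassium channel gated by ATP, and Ebf2 is a transcription factor. The same barcode held 84 UMIs of Postn but only 5 of Cox4i2, 9 of Gucy1a1 and 2 of Trpc6, and it had no UMI of Acta2 or Tagln. Its endothelial side was thin, with 2 UMIs of Pecam1, none of Cdh5 and 12 UMIs of the endothelial list out of 12201 UMIs in all. No B16-F10 member resembled it by these genes, as the highest count in a barcode was 3 for Rgs5 and Kcnj8 and 1 for Abcc9 and Ebf2. The other control mural-rich members were not all alike. Among them 1 barcode held all 11 Acta2 UMIs and 1 held 31 of the 34 Tagln UMIs. The barcode with the most Rgs5 was singled out after its values were seen. Ratios over all members that rest on it are given with and without it.

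Outside the rule, the genes with the highest ratio of members to unmarked barcodes in both libraries were Fst, Spp1, Lipg, Kcnk3, Ednra, Aff2, Notch3, Ltbp2, Adap2, Kcnq5, Agtr1a and Trpc6, of which 5 belong to the mural list. Only genes with at least 50 UMIs in the members of each library were ranked. These genes passed that limit in the group where they are high, so the ranking is a description. Fst encodes follistatin, an inhibitor of activins, and was at 29.5 against 0.481 CPM in the control and at 21.8 against 0.393 CPM in the B16-F10 library. Spp1, encoding the secreted protein osteopontin, was at 316 against 4.01 CPM and at 278 against 6.03 CPM. Lipg, encoding endothelial lipase, was at 104 against 1.48 CPM and at 83.2 against 2.00 CPM. Ltbp2, a latent TGF-beta binding protein of the matrix, gave log2 ratios of 5.84 and 4.99, and the potassium channel gene Kcnq5 gave 5.48 and 4.95.

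The spread of mural RNA over members with few and with many marker UMIs was described gene by gene. Outside the rule, 107 genes were at least 16-fold higher in mural-rich members than in unmarked barcodes, with at least 50 UMIs and a UMI in at least 16 of the 32 mural-rich members. The excess of each gene over unmarked barcodes in members with 3 to 5 marker UMIs was taken as a percentage of the same excess in mural-rich members, and its median was 2.87%. The genes were selected on their mural-rich counts, which are also the denominator of this percentage, so the percentages support no test. In the 27 genes with the shortest span, 2.19 to 16.3 kb, the median was 4.27%, and in the 26 with the longest, 164 to 2257 kb, it was 1.65%.

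Named genes spanned this range. Ndufa4l2, with a span of 2.19 kb, had an excess of 7.48% of its mural-rich excess, and Des, the muscle intermediate filament desmin, had 10.7%. Gucy1a1 had 4.17%, Trpc6, spanning 137 kb, had 1.69%, and Kcnq5, spanning 564 kb, had 0.272%. The scatter was wide. The highest values were those of Gap43, spanning 92.2 kb, and Ddr2, spanning 138.5 kb, at 11.54% and 11.49%. Tagln, spanning only 6.44 kb, had 0.607%. Over the 107 genes, Spearman's rho between span and this excess was -0.43, with -0.41 in the control and -0.34 in the B16-F10 members. This is a description over genes that share the same barcodes, and it has no p. Meg3, a long non-coding RNA that spans 30.7 kb, had an excess of 0.439%, below most genes of its span. With a looser limit of 8-fold and no minimum of barcodes, there were 145 genes and rho was -0.36. Spans came from the GENCODE M21 annotation of GRCm38, and the sources used here do not say if intronic reads entered the counts.

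**Figure D4:**
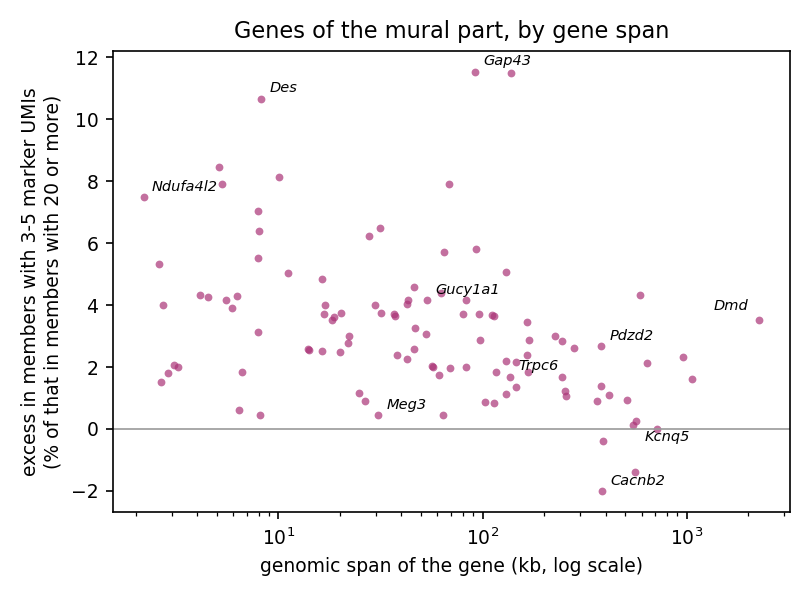
Excess of each of 107 mural-dominant genes in members with 3 to 5 marker UMIs, as a percentage of its excess in mural-rich members, against the genomic span of the gene (kb, log axis). The median was 4.27% in the 27 genes with the shortest spans and 1.65% in the 26 with the longest, with wide scatter.

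The capillary part of the profile was that of gCap cells. The gCap list, with Gpihbp1, Plvap, Kit and Aplnr among its 10 genes, was at 9359 CPM in control members and 8827 CPM in unmarked barcodes, and at 7620 and 7022 CPM in the corresponding B16-F10 groups. The endothelial list was at 12580 and 13720 CPM in the control and at 10650 and 11750 CPM in B16-F10. The aCap list was lower in members, at 661 against 2058 CPM and at 500.1 against 1429 CPM. When each barcode was thinned to 4000 UMIs before the rule, the gCap list was lower in members, by log2 ratios of -0.13 in the control and -0.23 in the B16-F10 library.

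Counted by barcode, 9 of 209 control members (4.31%, 1.99 to 8.02) and 16 of 450 B16-F10 members (3.56%, 2.05 to 5.71) had more aCap than gCap list UMIs. Among unmarked barcodes the share was 20.2% (19.3 to 21.2) and 16.1% (15.2 to 17.1). Of the mural-rich members it was 1 of 9 (11.1%, 0.281 to 48.3) and 3 of 23 (13.0%, 2.78 to 33.6). Mural-rich members made up 0.104% and 0.277% of gCap-sided barcodes, and 0.0653% and 0.277% of aCap-sided ones. Seen from the vessel side, 2.94% (2.55 to 3.38) of gCap-sided control barcodes were marked and 0.588% (0.269 to 1.11) of aCap-sided ones, and in the B16-F10 library 6.30% (5.73 to 6.90) and 1.48% (0.846 to 2.39). Depth went the other way, as aCap-sided barcodes had medians of 9133 and 11212 UMIs and gCap-sided ones 7438 and 8424. After thinning to 4000 UMIs, a marker UMI was found in 8.87% and 15.6% of gCap-sided and in 2.02% and 3.46% of aCap-sided barcodes. Among barcodes with at least 20 UMIs of an artery list the marked share was 2.48% in the control and 3.27% in the B16-F10 library, and with a vein list it was 2.60% and 2.73%. With a lymphatic list it was highest, at 10.2% (6 of 59, 3.82 to 20.8) and 6.56% (4 of 61, 1.82 to 15.9), on few barcodes.

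The genes lowest in members against unmarked barcodes were Rgs6, Ednrb, Fibin, Carmil1, Sftpc, AW112010, Car4, Ccdc68, Igfbp7, Tbx3os1, Auts2 and Fgfr3. Car4, a carbonic anhydrase of aCap cells, was at 222 against 689 CPM in the control and at 140 against 484 CPM in the B16-F10 library, and Ednrb, the endothelin B receptor, gave log2 ratios of -2.04 and -2.31. Within gCap-sided barcodes most of these ratios were nearer 0. There Car4 gave -0.15 and -0.20, Ednrb 0.08 and 0.06 and Igfbp7 -0.34 and 0.02, while Rgs6 was higher in members, by 0.95 and 1.05. Sftpc, the surfactant gene of alveolar type II cells, remained lower by -1.84 and -2.21. The mural list was higher in members within gCap-sided barcodes too, by 2.67 and 2.77, against 2.94 and 3.10 over all barcodes and 2.02 and 2.19 with mural-rich members left out.

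In mural-rich members 2 genes of the aCap list were high. Egflam, a matrix protein, stood at 576 and 338 CPM and the transcription factor Tbx2 at 510 and 550 CPM, whereas the list as a whole was at 1380 and 1302 CPM there.

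Genes of the contact between ECs and pericytes were split between both sides. Pdgfb, the endothelial ligand of Pdgfrb, was at 241 CPM in control members against 303 CPM in unmarked barcodes, and at 346 against 373 CPM in the B16-F10 library. Angpt1, the mural ligand of the endothelial receptor Tek, was at 104 against 18.9 CPM and at 58.5 against 13.1 CPM, and it had up to 36 and 33 UMIs in 1 barcode. Pde5a, the phosphodiesterase that ends nitric oxide signalling in mural cells, was at 222 against 48.7 CPM and at 236 against 49.5 CPM. The endothelial nitric oxide synthase gene Nos3 was at 16.5 against 26.7 CPM and at 30.8 against 29.9 CPM. Sparc, a matrix protein, was at 952 against 496 CPM and at 1119 against 580 CPM. The type IV collagen gene Col4a1 was at 981 against 892 CPM and at 1405 against 1147 CPM, and the laminin chain gene Lamb1 at 36.0 against 1.59 CPM and at 24.5 against 2.25 CPM. Dll4 and Notch1, a Notch ligand and receptor of ECs, were within log2 ratios of 0.08 of unmarked barcodes in both libraries.

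Markers of other cells were also measured in members. The 12-gene fibroblast list, led by Col1a2, was at 269 against 33.2 CPM in the control and at 226 against 67.7 CPM in the B16-F10 library, and in near-empty barcodes it was at 382 and 370 CPM. In mural-rich members the fibroblast list was at 1833 and 1357 CPM. Its genes Col1a1, Col1a2, Col3a1, Npnt and Tcf21 were among the 107 mural-dominant genes. The smooth muscle list was at 277 against 144 CPM and at 256 against 143 CPM, and at 1408 and 1306 CPM in mural-rich members. Of its defining genes, Acta2 had 12 UMIs in 2 control members and 78 UMIs in 17 B16-F10 members, of which 41 lay in 1 barcode. The lymphatic list was at 934 against 289 CPM in the control and at 316 against 407 CPM in the B16-F10 library. Members with at least 20 lymphatic list UMIs numbered 6 and 4, and a member held up to 263 and 247 UMIs of the lymphatic chemokine gene Ccl21a. The leukocyte list was at 36.5 and 50.7 CPM in members, the epithelial list at 587 and 465 CPM and the red cell list at 1192 and 1171 CPM, each below its unmarked level. The platelet list was at 208 against 138 CPM in the control and at 114 against 142 CPM in B16-F10. Melanoma genes were at 35.2 CPM in B16-F10 members against 77.1 CPM in unmarked and 955 CPM in near-empty barcodes, and at 2.501 CPM in control members.

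Doublet calls were most frequent below the marker threshold. Scrublet, which compares barcodes with simulated sums of 2 barcodes, called 6.70% of control members (3.71 to 10.98) and 7.33% of B16-F10 members (5.10 to 10.1), against 7.84% and 6.27% of unmarked barcodes. Of barcodes with 1 or 2 marker UMIs it called 11.8% (9.69 to 14.1) and 10.6% (9.02 to 12.3). It called none of the 9 control and 1 of the 23 B16-F10 mural-rich members. Members were deeper than unmarked barcodes, with medians of 9458 against 7480 UMIs in the control and 10346 against 8552 UMIs in the B16-F10 library. Their median mitochondrial share was 2.77% against 1.95% and 3.01% against 2.35%. The part of doublets in the members was not tested. Of 19 barcode sequences kept in both libraries, none was marked in both.

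Marked barcodes were more frequent in the B16-F10 library. They made up 209 of 8274 endothelial barcodes in the control, or 2.53% (2.20 to 2.89), and 450 of 7988 in the B16-F10 library, or 5.63% (5.14 to 6.16). The difference was 3.11 percentage points (2.503 to 3.72). The shares of barcodes with 3, 4 to 5, 6 to 9, 10 to 19 and at least 20 marker UMIs were 0.979%, 0.870%, 0.387%, 0.181% and 0.109% in the control, and 2.09%, 1.99%, 0.901%, 0.363% and 0.288% in the B16-F10 library. Barcodes with 1 marker UMI, outside the rule, made up 7.93% and 13.0%. The level of the 4 genes in near-empty barcodes was also higher in the B16-F10 library, as given above, and its part in the difference was not tested. After thinning each barcode to 4000 UMIs the shares were 0.869% (0.667 to 1.11) and 1.91% (1.60 to 2.26), with 1122 control and 979 B16-F10 barcodes too shallow to thin.

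The share of mural RNA in members did not differ in a settled direction between the libraries. The mural list was at 1494 CPM in control members (1441 to 1548) and 1404 CPM in B16-F10 members (1370 to 1439), a log2 ratio of B16-F10 over control of -0.09 (-0.15 to -0.03). Without the control member that held most Rgs5, the ratio was 0.02 (-0.05 to 0.08), and the sign also turned with no upper limit of genes, to 0.27, and after thinning to 4000 UMIs, to 0.47. The ratio therefore has no settled direction. Of the 15 list genes with 50 or more UMIs in both libraries together, 8 were higher in the B16-F10 members and their median ratio was 0.00, against -0.01 over all genes. Gucy1a1 gave 0.00, Notch3 0.01, Trpc6 -0.01, Ednra -0.02 and Gucy1b1 -0.03. Ndufa4l2 gave 0.23, and Kcnk3 gave 0.22. Agtr1a was at 25.5 and 15.9 CPM, a ratio of -0.68, and Cspg4, the pericyte proteoglycan NG2, at 5.50 and 15.1 CPM, a ratio of 1.45 on 11 and 69 UMIs. Rgs5 gave -3.40, or -1.52 once the barcode with the most Rgs5 UMIs was left out of each library. In unmarked barcodes, which the rule set by having no marker UMI, the list gave a summed ratio of -0.25 but a median of 0.55. There 11 of 15 genes were higher and 4 at least 2-fold, beside 2.57% of all genes, while Pdzd2, the gene with the most UMIs there, was lower.

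The rule genes themselves, which chose the members, were at 224 and 257 CPM for Cox4i2, 125 and 126 CPM for Higd1b, 99.1 and 117 CPM for Pdgfrb and 339 and 259 CPM for Postn. Postn alone was lower in the B16-F10 members. With Postn left out of the rule, 111 control and 288 B16-F10 barcodes were marked, and the mural list ratio was -0.33.

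Across all genes the B16-F10 members differed from the control members mainly by genes at a higher level. Of 9465 genes with 50 or more UMIs in the sums together, 378 (3.99%) were at least 2-fold higher and 201 (2.12%) at least 2-fold lower in B16-F10 members, and the median ratio was -0.01. Of the 9461 of these genes measured in unmarked barcodes, 243 (2.57%) were at least 2-fold higher and 66 (0.698%) at least 2-fold lower. Members were far fewer than unmarked barcodes, so counting error was larger in them.

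The rCap list, the study's own markers of reactive capillary ECs and chosen partly on these libraries, was higher as a whole. Its 44 genes were all higher in B16-F10 members, 31 of them at least 2-fold, against 3.99% of all genes. The summed ratio was 0.99 (0.97 to 1.02) and the median 1.49, and in unmarked barcodes the summed ratio was 0.86 (0.85 to 0.86) and the median 1.32. Inhbb, a subunit of activin, was at 4.50 CPM in the control and 149 CPM in the B16-F10 members, and it was found in 9 and 114 barcodes. Bcl3, a regulator of NF-kB, was at 13.0 and 111 CPM, and the kinase gene Pim3 at 73.0 and 289 CPM. The interleukin 4 receptor gene Il4ra was at 142 and 389 CPM. The study's interferon list gave 0.16 (0.12 to 0.20), and 0.20 in unmarked barcodes. Of its 50 genes 30 were higher in members, and the number of all genes that were higher is given in the next paragraph. Only 2 were at least 2-fold higher, a share near the 3.99% of all genes.

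**Figure D5:**
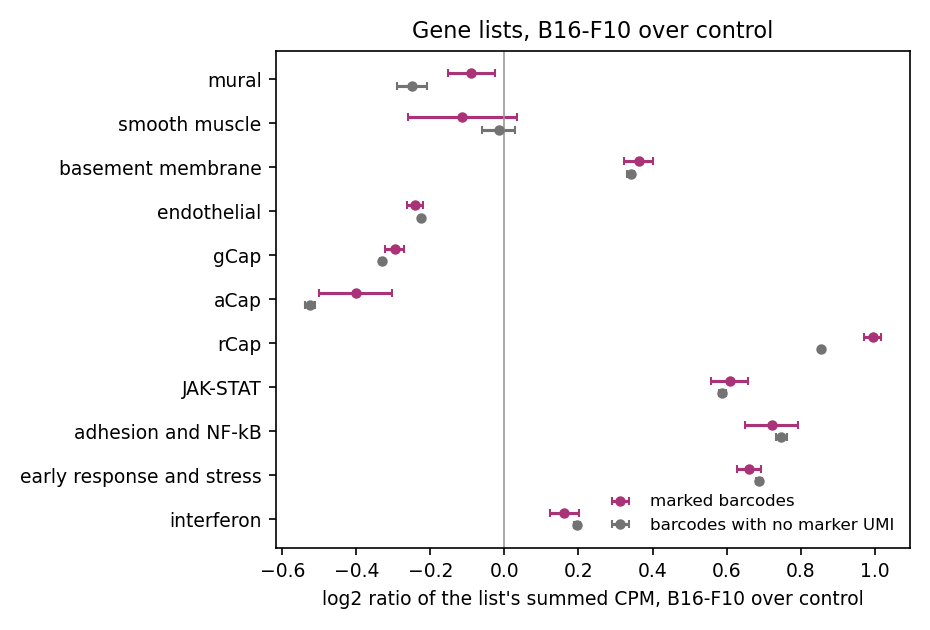
Log2 ratio of B16-F10 over control of the summed UMIs of each gene list in members and in unmarked barcodes, with exact 95% intervals that cover counting error. The rCap, adhesion and NF-kB, stress and JAK-STAT lists lie above 0 in both groups, at 0.99, 0.72, 0.66 and 0.61 in members, and the mural list lies at -0.09 in members.

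Genes of JAK-STAT signalling, adhesion and the early stress response were higher too. In the JAK-STAT list 16 of 19 measured genes were higher, beside 4615 of all 9465 genes, and 4 at least 2-fold, beside 3.99% of all genes. The summed ratio was 0.61 (0.56 to 0.66), against 0.59 in unmarked barcodes. Socs3, the feedback inhibitor of cytokine signalling, was at 55.0 and 408 CPM, a ratio of 2.89. In the adhesion and NF-kB list 14 of 15 were higher, 8 of them at least 2-fold against 3.99% of all genes, and the summed ratio was 0.72 (0.65 to 0.79), against 0.75 in unmarked barcodes. Vcam1, a leukocyte adhesion receptor, was at 3.50 and 34.7 CPM, and Icam1, another, at 119 and 226 CPM. The selectin gene Sele had no UMI in control and 52 UMIs in B16-F10 members. Csf1, the macrophage growth factor, was the exception, at 120 and 83.6 CPM. In the early response and stress list 20 of 22 were higher and 10 at least 2-fold, against the same 3.99%, with Atf3 at 5.50 and 105 CPM, Egr1 at 20.5 and 183 CPM and Mt1, a metallothionein, at 9.51 and 119 CPM.

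Capillary identity lists were lower in sum, though not in every gene. The endothelial list gave -0.24 (-0.26 to -0.22) in members and -0.22 in unmarked barcodes, the gCap list -0.30 (-0.32 to -0.27) and -0.33, and the aCap list -0.40 (-0.50 to -0.30) and -0.53. In members 4 of 12 endothelial, 4 of 10 gCap and 4 of 9 aCap genes were higher, where 4615 of all 9465 genes were. Esam, an adhesion molecule of EC junctions, gave 0.43, the apelin receptor gene Aplnr 0.42, and its ligand gene Apln 1.10 on 20 and 98 UMIs. Ramp2, a co-receptor of adrenomedullin, was at 3069 and 2004 CPM, and Adgrl3, an adhesion receptor of gCap cells, at 2367 and 1158 CPM. Lpl, encoding lipoprotein lipase, was at 902 and 562 CPM. Hey1, a Notch target, was at 289 and 163 CPM, and Edn1, the endothelin made by ECs, at 341 and 173 CPM. Prkg1, the kinase below nitric oxide and cyclic GMP, was at 550.3 and 266 CPM. In the other direction, the sphingosine receptor gene S1pr1 was at 648 and 1092 CPM, the growth factor gene Pdgfa at 51.5 and 161 CPM, and Col4a1 at 981 and 1405 CPM. The basement membrane list as a whole gave 0.36 (0.32 to 0.40), and 0.34 in unmarked barcodes.

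Among the genes with the largest ratios in members were Tuba1c, Inhbb, Tubb6, Selp, Snhg15, Myc, Lalba, Cxcl10, Fosl1, Lsamp and Atf3. The transcription factor gene Myc went from 3 UMIs in control members to 162 UMIs in 61 B16-F10 members, and Tubb6, a tubulin gene, from 3 UMIs to 220 UMIs in 59 members. Cxcl10, an interferon-induced chemokine, and Fosl1, a subunit of AP-1, had no UMI in control members and 143 and 138 UMIs in B16-F10 members. Against a floor of 3 counts over the group, their log2 ratios were at least 4.38 and 4.33. Of the Cxcl10 UMIs, 61 lay in 1 barcode, and without it the bound was 3.57. Without the highest barcode of each library no control UMI of Tuba1c, Selp, Snhg15 or Lalba was left, and their ratios of 6.12, 4.93, 4.71 and 4.56 became bounds of at least 4.32, 2.75, 3.02 and 2.74. The neuronal adhesion gene Lsamp did not belong with these, as 220 of its 227 UMIs lay in 1 B16-F10 barcode, and without the highest barcode of each library its ratio was 0.02.

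The genes with the lowest ratios were Ptn, Fabp4, Rgs5, Adamts5, Sema5a, Aspn, Reln, Igfbp3, Ttc39c, Klhl4, Prox1 and Fam107a. Several of them rested on few barcodes. Adamts5, a matrix protease, was found in 8 control members, with 36 of 70 UMIs in 1, and in 2 B16-F10 members, with 17 of 19 UMIs in 1. Ptn, the growth factor pleiotrophin, had 52 UMIs in 8 control members and 2 UMIs in 1 B16-F10 member. Fabp4, a fatty acid binding protein of ECs, was at 339 and 11.8 CPM and had 345 of its 677 control UMIs in 1 barcode, with a ratio of -4.84, or -5.18 without the highest barcode of each library. Igfbp3 had 29 of 35 control UMIs and Aspn 29 of 41 in 1 barcode, and their ratios went from -2.08 to -0.20 and from -2.31 to -1.08. Reln and Prox1, genes of lymphatic ECs, were found in 6 and 9 control and 4 and 5 B16-F10 members. Sema5a, a guidance molecule, was spread over 40 control and 28 B16-F10 members, at 47.5 and 9.61 CPM, and gave -2.31 in members and -2.55 in unmarked barcodes.

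Mural-rich members showed part of the same difference, on fewer counts. Of 18 rCap genes with 50 or more UMIs there, 16 were higher in the 23 B16-F10 than in the 9 control mural-rich members, where 872 of 1558 genes were higher, and the summed ratio was 0.83 (0.72 to 0.94). In the early response and stress list 11 of 13 genes were higher, with a summed ratio of 0.94 (0.77 to 1.12). Socs3 gave 3.16 and Egr1 3.64. The mural list gave -0.26 (-0.35 to -0.17) and the endothelial list 0.21 (0.06 to 0.36). Of the 1492 mural list UMIs of control mural-rich members, 230 lay in the barcode with the most Rgs5. The B16-F10 side included the 2 members with 4 and 0 mural list UMIs. The mural list ratio of mural-rich members was not computed without these barcodes, so its direction is not settled. Because mural-rich members held both kinds of RNA, the counts do not say from which cell the Socs3 or Egr1 molecules came.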

How the data were processed

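Single-cell RNA was measured in 2 libraries, 1 per group. The authors deposited raw UMI counts per gene and barcode, not normalized and not filtered, over 1597090 and 1779952 barcodes, with 85794655 and 104978816 UMIs. The file headers name Cell Ranger 7.2.0, the submitters' processing notes also Seurat 4.4.0 and mm10. The study's methods give an earlier Cell Ranger version and 3 mice per group.

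UMIs were summed per group and library. Ratios are log2 ratios of shares of all UMIs, with no pseudocount and exact conditional binomial intervals, levels carry exact Poisson intervals, shares Clopper-Pearson intervals and their differences Newcombe intervals. A sum of 0 was set to a floor of 3 counts. Genes needed 50 UMIs over both sums. In the comparison of marked with unmarked barcodes, the counts over all genes needed a mean level of 25.01 CPM. The genes named as highest or lowest in that comparison needed 50 UMIs in the marked sum of each library. Doublets were scored with Scrublet in scanpy 1.11.5, up to 0.8% per 1000 barcodes, and removed only as an alternative. Other steps used numpy 2.4.6, scipy 1.17.1 and pandas 2.3.3, and the ratios were tested on simulated data. Of 32285 gene IDs, 32235 matched GENCODE M21.

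Genes of the rule and the lists could be named, as well as the 12 highest and 12 lowest of each comparison, ranked for marked against unmarked barcodes by the ratio nearer 0 of the 2 libraries. Of the 12 highest in B16-F10 members, 1 gene is not reported here. The members and lists were chosen with earlier results of these data known. The classes by marker UMIs, the gCap and aCap sides, the minimum of 20 list UMIs, the mean-level filter and the limits for mural-dominant genes were set after values had been seen.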

Additional observations from a re-analysis of the deposited data

Results flagged for a closer look

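For 5 genes of the lists, the ratio of B16-F10 over control went opposite ways in members and unmarked barcodes, both intervals lay on opposite sides of 0 and both ratios were at least 0.5 from 0. The limit of 0.5 was set after values had been seen, and 18 genes met the condition without it. The difference itself was not tested. Gsn, encoding the actin-severing protein gelsolin, gave -0.59 in members and 0.86 in unmarked barcodes. Scgb1a1, the secretoglobin of club cells, gave -0.75 and 1.66. Ccl21a gave -1.67 and 0.82, and Maf, a transcription factor of lymphatic ECs, -1.51 and 0.59. Ccl21a was counted in 13 control and 22 B16-F10 members. Lamb1 gave -0.56 and 0.50.

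Endothelial barcodes with over 5000 genes were outside the rule. Of these, 20.6% in the B16-F10 library (125 of 608) and 11.6% in the control (38 of 329) met the marker part.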

How the results depend on the processing

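No paired analysis was possible because both groups consist of a single library, and for the same reason no replicate could be left out. A higher minimum of 4 Pecam1 and Cdh5 UMIs, a lower limit of 500 genes, a mitochondrial limit of 10%, scaling by the median ratio and leaving out mural-rich members moved no share, count or list ratio of B16-F10 over control beyond its interval or by 1.5 times. The comparison with unmarked barcodes was rerun only for the settings named below. Over all settings such values stayed in 96 cases, moved in 54 and turned sign in 6.

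The marked share, in control and B16-F10 with the difference in percentage points, was 1.04%, 2.40% and 1.36 with at least 5 marker UMIs, 1.34%, 3.61% and 2.26 without Postn, and 0.869%, 1.91% and 1.04 after thinning to 4000 UMIs. With no upper limit of genes the B16-F10 share was 6.69% and the difference 3.82. The mural list ratio of B16-F10 over control turned sign with no upper limit of genes (0.27), after thinning (0.47) and without the control member with the most Rgs5 (0.0175, chosen after seeing the data), and was -0.21 with 5 marker UMIs and -0.33 without Postn. Without Postn the endothelial, gCap, aCap, interferon and adhesion lists gave -0.26, -0.35, -0.65, 0.041 and 0.92. With 5 marker UMIs rCap, interferon and adhesion gave 0.96, 0.25 and 0.89. With no upper limit of genes aCap, rCap and interferon gave -0.036, 0.94 and 0.21. After thinning endothelial, gCap, rCap and adhesion gave -0.33, -0.41, 0.91 and 0.64, and aCap turned to 0.036. Without Scrublet-called barcodes gCap gave -0.25. Genes at least 2-fold higher and lower numbered 151 and 70 after thinning, and 586 and 439 with at least 20 UMIs.

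For members against unmarked barcodes, in control and B16-F10, the mural list gave 3.46 and 4.11 after thinning, 3.01 and 3.20 without Scrublet calls and 2.67 and 2.77 within gCap-sided barcodes (chosen after seeing the data). Without mural-rich members, also chosen then, the mural list gave 2.02 and 2.19, endothelial -0.076 and -0.098, gCap 0.13 and 0.16, and aCap -1.73 and -1.67. The endothelial list gave -0.27 and -0.37 after thinning and -0.16 and -0.13 within gCap-sided barcodes. After thinning gCap turned to -0.13 and -0.23, and aCap gave -1.76 and -1.18, or -1.61 in B16-F10 without Scrublet calls. Single genes turned sign in 18 cases. Igfbp3 gave 0.31 with 4 Pecam1 and Cdh5 UMIs, 0.32 without mural-rich members and 0.46 without the Rgs5 barcode. Lsamp gave -0.49 without Postn, -0.69 without Scrublet calls and -0.92 without mural-rich members. Klhl4 gave 0.10 without Postn, and after thinning Rgs5 gave 0.90, Aspn 1.90 and Sftpc 0.13 in control. Within gCap-sided barcodes Rgs6 gave 0.95 and 1.05, Carmil1 0.54 and 0.15, and in B16-F10 AW112010 gave 0.39, Ccdc68 0.082, Igfbp7 0.018 and Tbx3os1 0.50. The cause of these changes was not tested.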

Other observations

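Barcodes with at least 3 marker UMIs but under 2 UMIs of Pecam1 and Cdh5 were outside the rule and numbered 13 in the control and 24 in the B16-F10 library. Their mural list stood at 19300 CPM and 17650 CPM, above the 14100 and 11740 CPM of mural-rich members, and their endothelial list at 1181 and 2101 CPM. Their median depth was 6267 UMIs in the control and 2853 UMIs in the B16-F10 library, and the mural list had a median of 119 and 16.5 UMIs per barcode. The smooth muscle list was at 4841 and 2527 CPM and the fibroblast list at 4379 and 1657 CPM. No lymphatic list UMI was counted in them. The control number was below the 20 set for a comparison between libraries, and none was made.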
